A study of Mus musculus with 4 samples.

Results

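The genes described here encode a chromatin silencing system: the HUSH complex, the methyltransferase SETDB1 with its cofactor, and the co-repressor TRIM28. There are 8 of them among 43629 counted genes, chosen by symbol: Fam208a, Fam208b, Mphosph8, Pphln1, Morc2a, Setdb1, Trim28 and Atf7ip. The list was drawn up by function, but it was proposed when differences between the knockout and wild-type libraries were already known, among them the low value of Fam208b. The knockout-over-wild-type values of these genes are therefore given as a description of the libraries and not as independent evidence. All 8 passed the expression filter and were tested among 17022 genes.

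HUSH is built on the scaffold protein TASOR, encoded by Fam208a, which holds MPP8, a chromodomain protein that reads methylated lysine 9 of histone H3, and periphilin, an RNA-binding protein. The complex works with the ATPase MORC2 and with SETDB1, the enzyme that writes this histone mark, while ATF7IP stabilises SETDB1. TRIM28 recruits SETDB1 to sites bound by KRAB zinc finger proteins, and in mouse embryonic stem cells this route keeps endogenous retroviruses silent. Fam208b encodes TASOR2, a paralog of TASOR that in human cells can take the place of TASOR in a second form of the complex.

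Poly(A) RNA of mouse embryonic stem cells (129/Ola background, serum plus LIF) was sequenced as 4 libraries with a reverse-stranded protocol. Knockout library KO1 came from cells in which the proline-rich region of Drosha was deleted and KO2 from cells in which the arginine- and serine-rich region was deleted, both at passage 7. DROSHA is the nuclear RNase that starts microRNA maturation, and the series compares cells that carry these deletions with wild type. The wild-type libraries WT1 and WT2 came from the E14 line at passages 33 and 42 and are marked as re-used samples. Genotype, passage and library origin coincide and cannot be told apart, and each knockout allele is 1 library. Libraries of a group differ in allele or in passage, and p-values rest on the spread among these 4 samples. The knockout titles carry the mark d5, which is not explained.

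Library totals ran from 29264632 to 42322129 counts. Levels are given as CPM, the count divided by the library size after TMM scaling. Drosha itself, which checks the labels, stood at 158 CPM in both knockouts, against 364 and 357 CPM in wild type (-1.19 ± 0.11 on the log2 scale, edgeR adjusted p = 0.0482). These counts cover the whole gene and do not measure the deleted stretch or the protein. The Drosha call was lost with upper-quartile scaling (edgeR adjusted p = 0.0520) and with library totals alone (0.0542). It was also lost after removal of trends with GC content and length (0.0920, log2 fold change -1.35 ± 0.09). The log2 fold change of Drosha was -1.18 without KO1 and -1.18 without KO2. The pluripotency genes Pou5f1, Nanog, Sox2, Zfp42, Esrrb and Dppa5a lay between 319.9 and 2292 CPM in every library, as the cell type label requires. The knockout pair differed by 2.26 times sampling noise (chi-square per degree of freedom over genes), and the wild-type pair by 167 times. Summed endoderm markers (Gata4, Gata6, Sox17, Dab2, Foxa2 and Cubn, of which Cubn fell) came to 14.1 and 12.7 CPM in the knockouts, against 56.7 CPM for WT1 and 163 CPM for WT2. Summed feeder fibroblast markers (Col1a1, Col1a2, Col3a1, Dcn, Thy1 and Postn, 0 called) came to 48.4 and 44.7 CPM in the knockouts, against 33.04 CPM for WT1 and 26.6 CPM for WT2, and Dcn and Postn had no count in either wild type. The part of these other cells in the values below was not tested. In bulk RNA, fewer cells of a type and less RNA per cell cannot be told apart.

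The upstream sequences of the 2 TASOR paralogs are shown because the ratio between these paralogs is followed from library to library here. They are the 250 bases before the annotated start, 5′ to 3′ on the strand of each gene (RefSeq, build GRCm38.p6), at chr13:3611109-3611358 on the minus strand for Fam208b and at chr14:27428584-27428833 on the plus strand for Fam208a. Capitals mark GCGCCTGCGC, the longest word that occurs more than once in the Fam208b window, searched on both strands after that window had been read.
Fam208b: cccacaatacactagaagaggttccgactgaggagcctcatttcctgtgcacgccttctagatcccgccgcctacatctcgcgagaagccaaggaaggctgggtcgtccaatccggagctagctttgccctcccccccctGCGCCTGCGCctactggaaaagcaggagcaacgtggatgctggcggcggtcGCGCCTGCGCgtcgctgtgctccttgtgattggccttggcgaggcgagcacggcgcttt
Fam208a: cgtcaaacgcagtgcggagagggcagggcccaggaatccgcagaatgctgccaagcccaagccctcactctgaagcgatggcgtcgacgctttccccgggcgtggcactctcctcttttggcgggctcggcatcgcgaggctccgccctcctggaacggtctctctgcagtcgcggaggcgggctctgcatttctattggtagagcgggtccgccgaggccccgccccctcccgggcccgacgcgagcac
The Fam208b window held 2 matches and 22 CG dinucleotides, and the Fam208a window held 0 matches and 27 CG dinucleotides. Of 32851 annotated upstream windows of the same length, 1.71% held at least 1 match and 0.16% at least 2. The windows of the other 6 genes held 0 matches. The word was picked from the Fam208b window itself, so its count there is a description, and both windows are rich in CG dinucleotides, against a median of 6 over all windows.

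Fam208b was the member with the lowest values in the knockouts. It lies on chromosome 13 (ENSMUSG00000033799, 3566035 to 3611108, minus strand, build mm10). It had 835 counts in KO1 and 1266 in KO2, against 4356 in WT1 and 5221 in WT2. As normalised read counts these were 27.1 and 28.5 CPM in the knockouts, against 109 and 145 CPM in the wild types. The groups were far apart: the lowest wild-type library held more than any knockout library by a margin wider than the gap between the 2 wild types. The knockout mean was 27.8 ± 1.04 CPM and the wild-type mean 127 ± 25.4 CPM (SD, n = 2 each), which is 4.57-fold lower in the knockouts. The fitted log2 fold change, knockout over wild type, was -2.19 ± 0.19 (SE), with an adjusted p of 0.0482 (edgeR quasi-likelihood test, Benjamini-Hochberg over all genes). This is the smallest adjusted p of the whole table, shared with other genes. Of the 17022 genes tested, 140 (0.823%) had a lower fitted change, and of the 6004 genes with a mean log2 CPM of at least 5, 2 did. The call was lost with upper-quartile scaling (adjusted p = 0.0520), with library totals alone (0.0542), after removal of trends with GC content and length (0.0920, log2 fold change -1.57 ± 0.15), without KO1 (0.163) and without KO2 (0.0849), and in each of these fits Fam208b stayed below 0.

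**Figure D1:**
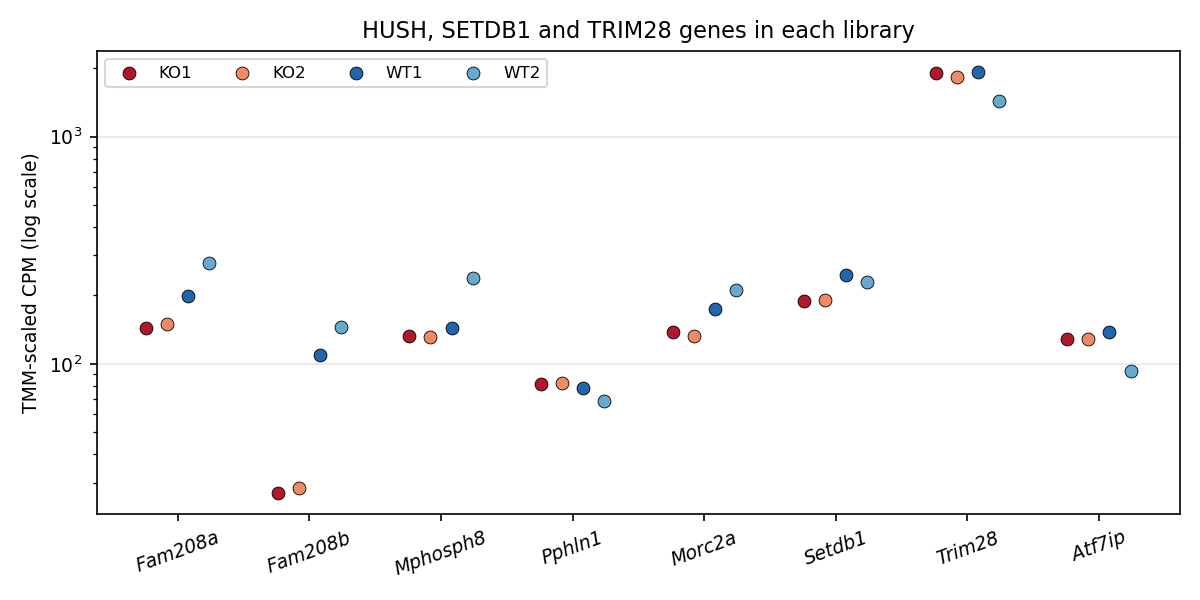
TMM-scaled CPM (log axis) of the 8 genes in each library, with a point per library and knockouts left of wild types. Fam208b sits at 27.1 and 28.5 CPM in KO1 and KO2 and at 109 and 145 CPM in WT1 and WT2, and the knockout points of every gene lie close together.

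Fam208a, the paralog that encodes the HUSH scaffold TASOR, lies on chromosome 14 (ENSMUSG00000040651, 27428834 to 27483555, plus strand). It had 144 and 149 CPM in the knockouts, against 200 and 277 CPM in the wild types. The groups did not overlap, but the wild types differed more from each other than WT1 did from the knockouts. The log2 fold change was -0.71 ± 0.20 and did not pass (edgeR adjusted p = 0.0880; DESeq2 adjusted p = 0.0418). After removal of the trends it was -0.0065 ± 0.17, and the groups overlapped at 185 and 186 CPM in the knockouts, against 159 and 213 CPM in the wild types.

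The ratio of the paralogs within a library does not depend on scaling between libraries, and the paralogs are alike in transcript GC content (40.9% for Fam208b and 38.9% for Fam208a) and in exon length (12.5 and 13.6 kb). The count of Fam208b over that of Fam208a was 0.189 in KO1 (95% exact binomial interval 0.175 to 0.203) and 0.191 in KO2 (0.180 to 0.203). It was 0.546 in WT1 (0.526 to 0.567) and 0.523 in WT2 (0.506 to 0.541). These intervals cover counting error only. Each pair of libraries thus held nearly the same ratio, with the knockout mean of 0.190 ± 0.0020 at 35.5% of the wild-type mean of 0.535 ± 0.017 (SD, n = 2 each). As a log2 difference, knockout over wild type, this was -1.49, beside -1.57 for Fam208b with trends removed. Both values rest on the same counts, and the fitted trends were alike at Fam208b (-0.61) and Fam208a (-0.69). Their closeness is therefore no separate evidence.

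**Figure D2:**
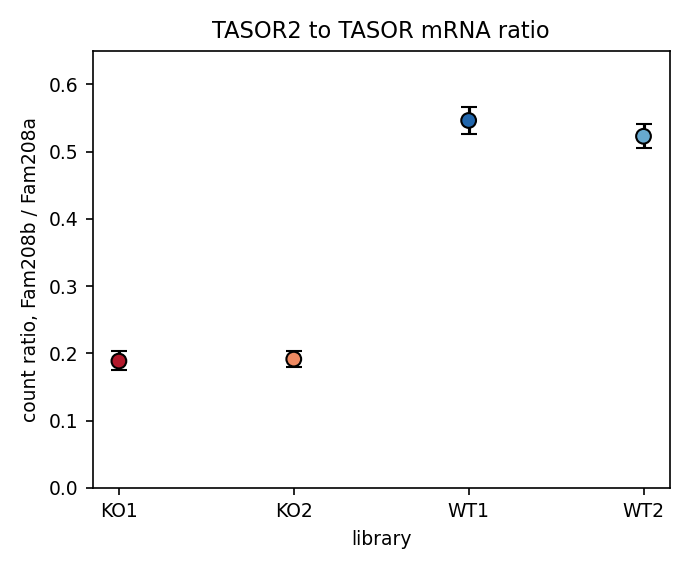
Count of Fam208b divided by that of Fam208a in each library, with 95% exact binomial intervals for counting error (n = 2 libraries a group). The knockout ratios are 0.189 and 0.191 and the wild-type ratios 0.546 and 0.523, and the intervals of the groups are far apart.

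The other HUSH subunits differed less. Mphosph8, which encodes MPP8 (ENSMUSG00000079184, chromosome 14, 56668248 to 56697430), had 132 and 132 CPM in the knockouts, against 144 and 238 CPM in the wild types. WT1 lay close to the knockouts and WT2 far above them. The log2 fold change was -0.54 ± 0.27 (edgeR adjusted p = 0.222) and -0.04 ± 0.17 with trends removed. Pphln1, which encodes periphilin (ENSMUSG00000036167, chromosome 15, 93398350 to 93491510), had 81.2 and 82.7 CPM in the knockouts, against 78.6 and 68.9 CPM in the wild types. It was the member whose knockout values lay above both wild types, with a log2 fold change of 0.15 ± 0.13 that did not pass (adjusted p = 0.428). With trends removed the value was 0.56 ± 0.17 (adjusted p = 0.161). All tested genes of chromosome 15 had a median log2 fold change of 0.51, and a median log2 ratio of WT2 over WT1 of -0.61, so Pphln1 lay 0.36 below its own chromosome (-0.36 as a log2 difference).

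Morc2a, which encodes the ATPase MORC2 (ENSMUSG00000034543, chromosome 11, 3649191 to 3690477), had 139 and 132 CPM in the knockouts, against 173 and 211 CPM in the wild types. The groups did not overlap, and the log2 fold change of -0.50 ± 0.15 did not pass (edgeR adjusted p = 0.0946). Of all members with a negative value, Morc2a moved least with trends removed (-0.43 ± 0.14, adjusted p = 0.172). Its paralog Morc2b was barely detected, at 0.454 and 0.361 CPM in the knockouts, against 0.576 and 0.528 CPM in the wild types. The annotated starts of Morc2a and of the non-coding RNA gene Tug1 overlap on opposite strands, and Tug1 had 113 and 116 CPM in the knockouts, against 197 and 214 CPM in the wild types (-0.84 ± 0.12 on the log2 scale, edgeR adjusted p = 0.0482). With trends removed Tug1 was at -0.15 ± 0.09 (adjusted p = 0.354).

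Setdb1 (ENSMUSG00000015697, chromosome 3, 95323525 to 95357202) encodes the methyltransferase that TRIM28 recruits and ATF7IP stabilises. It had 189 and 190 CPM in the knockouts, against 245 and 229 CPM in the wild types. Both knockouts lay below both wild types, with a log2 fold change of -0.32 ± 0.12 that did not pass (edgeR adjusted p = 0.129). The value was -0.18 with library totals alone and -0.12 ± 0.09 with trends removed (adjusted p = 0.465). Atf7ip, the SETDB1 cofactor gene (ENSMUSG00000030213, chromosome 6, 136506167 to 136610862), had 128 and 129 CPM in the knockouts, against 139 and 92.5 CPM in the wild types. The knockouts lay between the wild types, and the log2 fold change was 0.15 ± 0.23 (adjusted p = 0.645), turning to -0.10 without WT2. With trends removed the knockouts were above both wild types, at 0.51 ± 0.14 on the log2 scale (adjusted p = 0.143).

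Trim28 (ENSMUSG00000005566, chromosome 7, 12999114 to 13031035) was the most abundant member. It had 1906 and 1837 CPM in the knockouts, against 1928 and 1432 CPM in the wild types, and the groups overlapped. The log2 fold change was 0.16 ± 0.19 (edgeR adjusted p = 0.570). Its direction depended on the processing. Its longest transcript is 59.6% GC, above 95.1% of tested genes. At this gene the fitted GC and length trends together put the knockouts above the wild types by 1.14 on the log2 scale. With those trends removed Trim28 had 1249 and 1260 CPM in the knockouts, against 2387 and 2530 CPM in the wild types, a log2 fold change of -0.97 ± 0.10 (adjusted p = 0.0920, the smallest that fit gave). Both values rest on the same counts, and no gene passed in the fit with trends removed, where 4300 genes had an unadjusted p under 0.05 (edgeR).

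**Figure D3:**
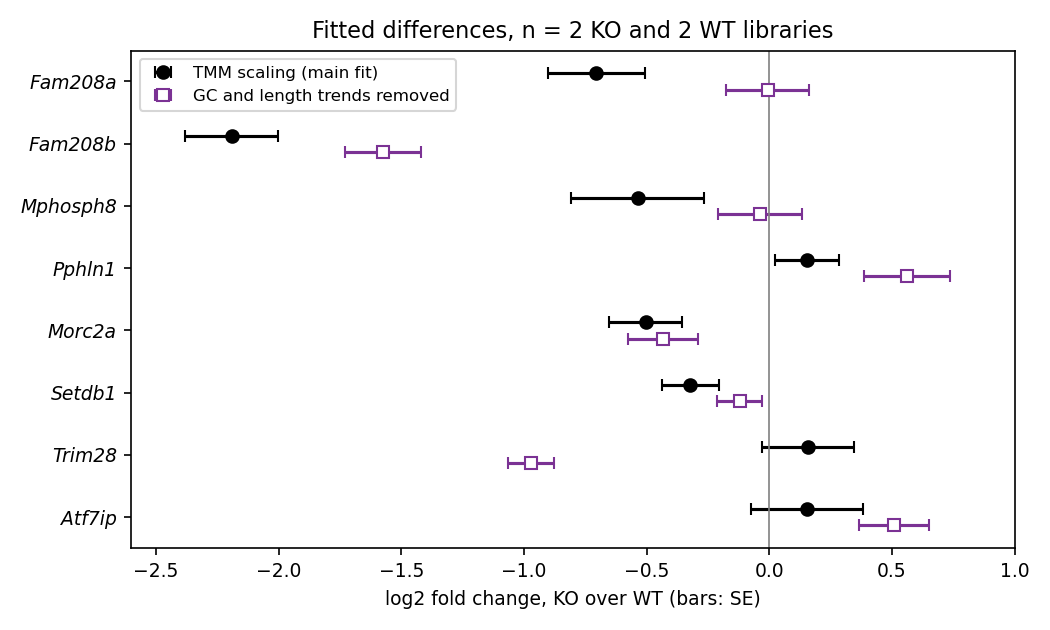
Log2 fold change of knockout over wild type with its SE for each member, from the edgeR fit with TMM scaling (filled circles) and with GC and length trends removed (open squares), n = 2 libraries a group. Fam208b lies at -2.19 and -1.57, Trim28 changes side between 0.16 and -0.97, and Fam208a and Mphosph8 move to near 0.

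Read over all members, 1 of 8 was called (Fam208b, lower), beside 5.45% of all tested genes in either direction and 1.94% lower. Nothing is read from this count, since the contrast was known when the genes were chosen. Knockouts lay below both wild types for 5 members (Fam208a, Fam208b, Mphosph8, Morc2a and Setdb1) and above both for 1 (Pphln1), while Trim28 and Atf7ip overlapped. Over all tested genes the groups did not overlap for 71.2%, with 34.8% lower and 36.5% higher. The median log2 fold change of the members was -0.41 against -0.02 over all genes, and -0.08 against -0.04 with trends removed. DESeq2 called 2 members (Fam208a and Fam208b) beside 22.7% of all genes it tested, and edgeR with the replicate block 1 (Fam208b) beside 11.3%.

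Within the groups the members differed much more between the wild types than between the knockouts. The ratio of KO1 to KO2 ran from 0.949 (Fam208b) to 1.05 (Morc2a) over the 8 genes. The counting interval excluded equality for 2 of them, Morc2a and Trim28. The ratio of WT2 to WT1 ran from 0.667 (Atf7ip) to 1.65 (Mphosph8), and the interval excluded equality for all 8. For Fam208b it was 1.33 (95% interval 1.28 to 1.38, counting error only), so that the difference between the wild types was small beside the 4.57-fold difference between the groups. Members went both ways in WT2 over WT1: Fam208a (1.39), Mphosph8 and Morc2a (1.22, 95% interval 1.18 to 1.26) were above 1, and Pphln1 (0.877), Setdb1 (0.933), Trim28 (0.743) and Atf7ip were below. The median absolute log2 ratio of WT2 to WT1 was 0.42 over the members and 0.45 over all genes.

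Levels were compared between genes only per kilobase of annotated exon. Trim28 came first in every library, with 459 and 442 CPM per kb in the knockouts, against 464 and 344 CPM per kb in the wild types. Mphosph8 followed at 36.8 and 36.7 CPM per kb in the knockouts, against 40.2 and 66.5 CPM per kb in the wild types, and then came Setdb1 and Morc2a in every library, nearly level in WT2 at 33.4 CPM per kb for Setdb1 and 32.8 CPM per kb for Morc2a. Pphln1 and Fam208a changed places between WT1 and WT2. Fam208b was the lowest of the 8 in the knockouts, at 2.17 and 2.29 CPM per kb, whereas in the wild types, at 8.76 and 11.6 CPM per kb, it stood above Atf7ip. The exon length of Atf7ip counts all annotated isoforms, so its level per kilobase is a low estimate if the long forms are rare.

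The subunits can also be set against each other inside a library. The count of Fam208a over that of Mphosph8 was 1.09 in KO1 and 1.13 in KO2, against 1.39 in WT1 and 1.16 in WT2. That of Pphln1 over Mphosph8 was 0.615 and 0.628 in the knockouts, against 0.545 and 0.289 in the wild types. For both pairs the gap between the wild types was larger than that between the knockouts and the nearer wild type. For Fam208b over Mphosph8 the ratio was 0.205 and 0.217 in the knockouts, against 0.757 and 0.608 in the wild types, with no such ambiguity.

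Genes on either side of Fam208b were lower in the knockouts as well. Fam208b is the third tested gene from the start of chromosome 13, so that only 2 tested genes precede it. The first, the non-coding RNA gene 2810429I04Rik, had 1.26 and 2.01 CPM in the knockouts, against 6.69 and 5.69 CPM in the wild types (-1.91 ± 0.33 on the log2 scale, edgeR adjusted p = 0.0519). Gdi2, a regulator of RAB GTPases whose 3′ end overlaps that of Fam208b on the other strand, had 523 and 526 CPM, against 654 and 1090 CPM (-0.73 ± 0.28, adjusted p = 0.140). On the other side Asb13, an ankyrin repeat gene, had 1.78 and 1.92 CPM in the knockouts, against 4.18 and 4.86 CPM in the wild types (-1.29 ± 0.25, adjusted p = 0.0557). Net1, which encodes a RHOA exchange factor, had 50.7 and 53.6 CPM, against 78.2 and 105 CPM (-0.81 ± 0.19, adjusted p = 0.0676). The aldo-keto reductase gene Akr1c13 had 0.259 and 0.225 CPM in the knockouts, against 0.827 and 0.805 CPM in the wild types (-1.75 ± 0.35, adjusted p = 0.0581). None of these 5 genes passed in edgeR. DESeq2 called 3 of them lower, beside 10.3% of all genes: 2810429I04Rik (adjusted p = 0.000161), Asb13 (0.0103) and Net1 (0.0172). For all 5 both knockouts lay below both wild types, as for 34.8% of all tested genes. With GC and length trends removed the log2 fold changes were -1.33 for 2810429I04Rik, -0.23 for Gdi2, -1.045 for Asb13, -0.47 for Net1 and -1.42 for Akr1c13. RNA counts do not measure gene copies, and whether the copy number of this region differs between the lines was not tested. The 597 tested genes of chromosome 13 had a median of -0.26.

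**Figure D4:**
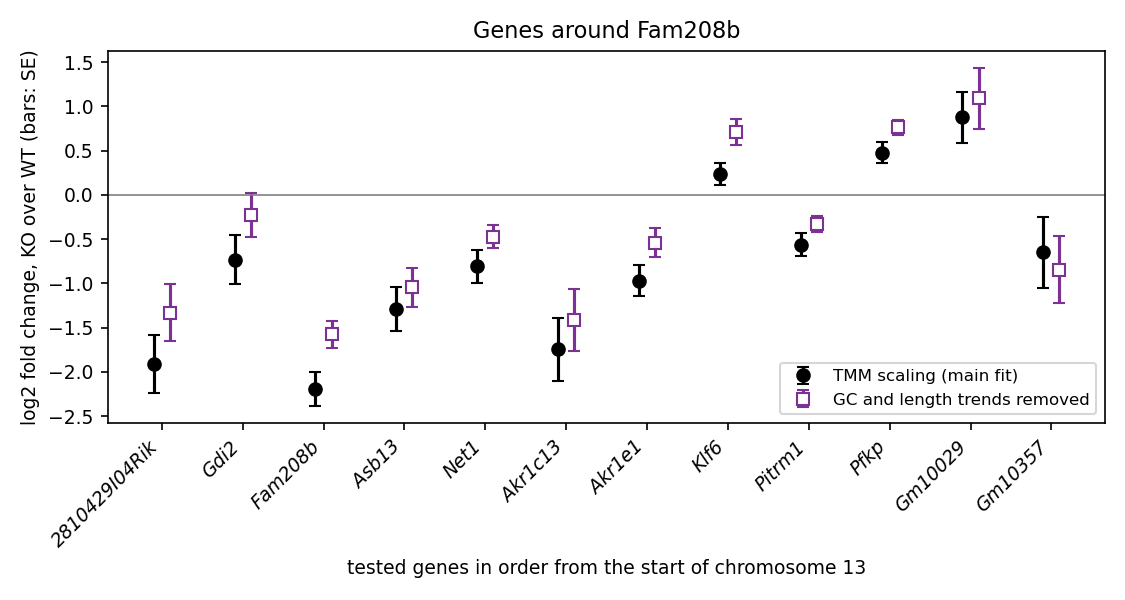
Log2 fold change of knockout over wild type with its SE for the first 12 tested genes of chromosome 13, in their order, with TMM scaling (filled circles) and with GC and length trends removed (open squares), n = 2 libraries a group. The first 7 genes are all below 0 in both fits, with Fam208b lowest at -2.19 and -1.57, and Klf6 after them is above 0.

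Under TMM scaling, neighbours of the other members showed no single direction, apart from those of Mphosph8. The 6 nearest tested genes of Mphosph8 had log2 fold changes between -1.02 and -0.40, of which 1 (Rnf17, -0.86 ± 0.11, edgeR adjusted p = 0.0482, and -0.29 ± 0.11 with trends removed) fell, and Mphosph8 at -0.54 lay inside that range. DESeq2 called Rnf17 (adjusted p = 0.00196), Cenpj (0.0135) and Zmym5 (0.0232) lower, beside 10.3% of all genes, but not Parp4, Gm16973 or Pspc1. With trends removed Gm16973 was above 0, at 0.11 ± 0.15. Around Fam208a the range was -0.65 to 0.97, around Setdb1 -0.88 to 1.12, around Trim28 -0.35 to 0.88, around Atf7ip -0.56 to 1.36, around Pphln1 -0.41 to 1.55 and around Morc2a -0.84 to 1.37.

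The genes whose 4 library values were most like those of Fam208b, by Euclidean distance between centred log2 CPM among 12583 genes with a mean log2 CPM of at least 1, lay on other chromosomes. The nearest was the laminin gene Lama1 of chromosome 17 (distance 0.115), with 36.1 and 36.7 CPM in the knockouts, against 136 and 174 CPM in the wild types. Next came Gm14322 (0.177), the X-linked Mageb16 (0.180), Gm8337 (0.202) and the pseudogene Rpl5-ps2 (0.270), of which pseudogene counts are uncertain because reads can match the parent gene. With 4 libraries such a likeness says little more than that these genes had a change of similar size under TMM scaling. With trends removed Lama1 was at -2.45 ± 0.27 on the log2 scale, beside -1.57 for Fam208b. The others were then at -1.59 (Gm14322), -1.76 (Mageb16), -1.96 (Gm8337) and -1.655 (Rpl5-ps2).

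The wider pathway was followed with 8 lists of 56 genes, of which 53 were tested. In all, 5 fell and 0 rose (9.43% lower, beside 1.94% lower and 3.51% higher over all tested genes), and 48 did not pass. In TMM-scaled CPM, knockouts lay below both wild types for 35 of the 53 genes (66.0%, beside 34.8% of all genes). They lay above both for 5 (9.43%, beside 36.5%). The lists were chosen with earlier results of these data known, so these counts are a description and nothing is read from them. With GC and length trends removed no gene passed. In that fit 6 list medians stayed below 0 but nearer to it, that of the HP1 genes turned to 0.09 and that of the 2-cell genes was 0.74.

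Among 11 genes that help to silence proviruses, 3 fell and 0 rose, with a median log2 fold change of -0.39 (-0.27 with trends removed). Hells, a chromatin remodeller needed for DNA methylation, had 438 and 452 CPM in the knockouts, against 817 and 929 CPM in the wild types (-0.97 ± 0.13, edgeR adjusted p = 0.0482, and -0.29 ± 0.09 with trends removed). Atrx, which deposits histone H3.3 with DAXX, had 279.8 and 296 CPM, against 597 and 511 CPM (-0.94 ± 0.14, adjusted p = 0.0482, and -0.24 ± 0.10 with trends removed). The third gene, named because the count is small, was the remodeller gene Smarcad1 (-0.86 ± 0.13, adjusted p = 0.0492, and -0.24 ± 0.12 with trends removed). Dnmt1 (0.22 ± 0.17, adjusted p = 0.402), Uhrf1 (-0.07 ± 0.15, adjusted p = 0.744) and Daxx (0.44 ± 0.17, adjusted p = 0.149) passed neither in edgeR nor in DESeq2. With trends removed these genes were at -0.13 for Dnmt1, -0.43 for Uhrf1 and -0.27 for Daxx. Yy1 did not pass in edgeR (-0.80 ± 0.18, adjusted p = 0.0640), but DESeq2 called it lower (adjusted p = 0.0154). With trends removed Yy1 had the lowest value of this list, at -0.82 ± 0.19 (edgeR adjusted p = 0.118).

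Of 4 RNA decay partners, which belong to nuclear exosome adaptors that work beside HUSH, 1 fell and 0 rose (median -0.72, and -0.25 with trends removed). That gene was Mtrex, the exosome helicase, with 171 and 173 CPM in the knockouts, against 283 and 307 CPM in the wild types (-0.78 ± 0.12, edgeR adjusted p = 0.0482, and -0.34 ± 0.09 with trends removed). Zfc3h1 had the lowest value of the list but did not pass in edgeR (-1.39 ± 0.29, adjusted p = 0.0611, and -0.998 ± 0.26 with trends removed). DESeq2 called Zfc3h1 (adjusted p = 0.000473) and Mtrex (0.00534). Of 11 germline genes, a class that SETDB1 helps to silence in embryonic stem cells, 1 fell and 0 rose, with a median of -0.56 (-0.22 with trends removed). It was Stk31, with 4.18 and 5.14 CPM in the knockouts, against 16.8 and 19.7 CPM in the wild types (-1.97 ± 0.21, adjusted p = 0.0482, and -1.41 ± 0.17 with trends removed). Dazl (-0.71 ± 0.17, adjusted p = 0.0701) and Sycp3 (0.26 ± 0.32, adjusted p = 0.577) did not pass in edgeR, and DESeq2 called Dazl (adjusted p = 0.0378). With trends removed Dazl was at -0.07 ± 0.22 and Sycp3 at 1.001 ± 0.21.

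The other 5 lists had 0 genes called by edgeR in either direction, with 8 genes at an unadjusted p under 0.05, beside 6320 of all 17022 tested genes. These were 3 of 8 H3K9 genes, 1 of 3 HP1 genes, 2 of 4 MORC genes, 2 of 9 TRIM28 partners and 0 of 3 tested 2-cell genes. Of 8 other writers of H3K9 methylation or their partners (median -0.31, and -0.09 with trends removed), the smallest p was that of Setdb2, with 15.8 and 16.5 CPM in the knockouts, against 27.7 and 37.0 CPM in the wild types (-1.003 ± 0.20, adjusted p = 0.0575, and -0.52 ± 0.12 with trends removed). Wiz went the other way by more (1.29 ± 0.29, adjusted p = 0.064, and 0.61 ± 0.12 with trends removed). In this list knockouts lay below both wild types for 3 genes and above both for 2, beside 34.8% and 36.5% of all genes. Of the 3 HP1 genes (median -0.40, and 0.09 with trends removed), it was that of Cbx1 (-0.73 ± 0.22, adjusted p = 0.0983, and -0.34 ± 0.14 with trends removed). Of 4 other MORC genes (median -0.47, and -0.09 with trends removed), it was that of Morc3 (-0.49 ± 0.11, adjusted p = 0.0670, and -0.05 ± 0.11 with trends removed). Of 9 TRIM28 partners (median -0.42 with all 9 below 0, and -0.27 with trends removed), it was that of Zfp57, a KRAB zinc finger gene that guards imprints, with 406 and 400.5 CPM in the knockouts, against 634 and 572 CPM in the wild types (-0.58 ± 0.12, adjusted p = 0.0615, and -0.26 ± 0.15 with trends removed). DESeq2 called Setdb2 (adjusted p = 0.00462), Cbx1 (0.0425) and Zfp57 (0.0392) lower and Wiz (0.00139) higher, but did not call Morc3 (0.0856). Cbx3 and Sumo2 have processed pseudogenes that can share their reads. By DESeq2, 14 of the 53 pathway genes were called lower and 1 (Wiz) higher, beside 10.3% and 12.4% of all genes. This count too is a description, since the lists were chosen with earlier results known.

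Genes of the 2-cell-like state, which rise when TRIM28 or SETDB1 is lost from embryonic stem cells, were near the detection limit. Of 6 genes 3 were tested and 0 passed (median 0.41). That median was -0.19 without KO2, -0.34 without WT2 and 3.57 without WT1, so it rests on single libraries. Zscan4c had 1.46 and 1.49 CPM in the knockouts, against 1.403 CPM for WT1 and 0.0555 CPM for WT2 (log2 fold change 0.998 ± 1.20, edgeR adjusted p = 0.570). WT1 lay beside the knockouts and WT2 far below, and since copies of this family are nearly identical, the counts of a single copy are uncertain.

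**Figure D5:**
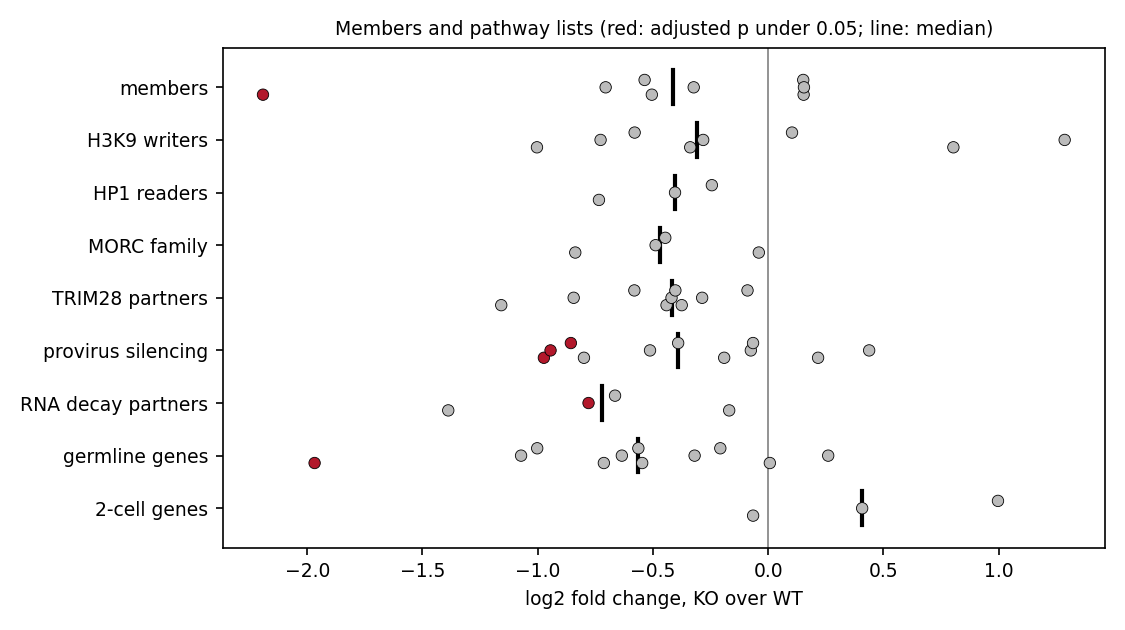
Log2 fold change of knockout over wild type for the 8 members and the tested genes of the 8 lists, with a point per gene, called genes (edgeR adjusted p under 0.05) in red and a line at each median. Fam208b stands alone at -2.19 among the members, and the 5 called pathway genes all lie below 0.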

How the data were processed

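The authors deposited raw read counts for each Ensembl gene, without normalisation. The submitters' processing notes name STAR 2.4.2a, featureCounts 1.4.5-p1 and the mm10 build. The annotation release, the strand setting and the handling of overlapping genes are not stated in those notes or the labels. Symbols matched 42462 of 43629 identifiers (97.3%); coordinates, exon length and transcript GC came from GENCODE M21. Groups came from the titles. Tests on the counts used edgeR 4.0.16 under R 4.3.3 (TMM scaling, filter with minimum count 10 and minimum total 15, quasi-likelihood fit of group alone, Benjamini-Hochberg adjustment over all genes, threshold 0.05). Standard errors were derived from the F statistic. TMM factors were 1.055 for KO1, 1.049 for KO2, 0.995 for WT1 and 0.908 for WT2. With library totals alone the median log2 fold change of all genes was 0.13. GC and length trends were removed as lowess offsets (span 0.3) fitted to log2 CPM with a prior count of 2. Alternatives also included DESeq2 1.42.0. Ratios of 2 libraries carry exact binomial intervals (95%). A single count was worth 0.0225 to 0.0324 TMM-scaled CPM, which limits genes below about 1 CPM.

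The members and gene lists were chosen with earlier results of these data known. Named genes were all members, Drosha, up to 2 called genes of each list in each direction or else the smallest p, the 3 nearest tested genes on each side of Fam208b and the 5 genes most like it. Smarcad1, Dnmt1, Uhrf1, Daxx, Dazl, Sycp3, Morc2b, Tug1, Rnf17, Cbx3, Sumo2, Wiz, Zfc3h1, Akr1e1 and Klf6 were named after their values were seen. So were Yy1, Cenpj, Zmym5, Parp4, Gm16973 and Pspc1. Plots and tables used Python 3.11.15.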

Additional observations from a re-analysis of the deposited data

How the results depend on the processing

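The number of called genes was 927. It was 1017 with DESeq2 size factors in edgeR, 2663 with no filter, 1440 with a stricter filter and 3757 in DESeq2. In edgeR it was 0 with upper-quartile scaling (6267 genes at an unadjusted p under 0.05), with library totals alone (6116), with GC and length trends removed (4300) and with the replicate block and these trends removed (3227). Leaving out a library gave 0 to 13658 calls: 0 without KO1 (1760 at an unadjusted p under 0.05), 22 without KO2, 13658 without WT1 and 12089 without WT2; in the last 2 fits the lone wild type is assumed to vary like the knockouts. Of the members 1 was called; 2 were in DESeq2, 0 with upper-quartile scaling, with library totals alone, with trends removed and with the block and trends removed, and 0 to 8 when a library was left out. The log2 fold change of Fam208b ran from -2.38 to -1.56 over 13 alternatives.

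Replicate numbers are shared by the groups, and deviations of same-numbered libraries from their group means had a correlation of 0.046. With 2 libraries a group, both pairs give this same value by construction. The knockout pair differed by only 2.26 times sampling noise. The correlation therefore cannot show whether same-numbered libraries share more than a number. With the replicate block 1929 genes and 1 member (Fam208b) were called; among the other named genes refitted, Mtrex was then not called (adjusted p = 0.0536), and Setdb2 (0.0477) and 2810429I04Rik (0.0346) were. Signs turned for Trim28 (-0.97 with trends removed, with and without the block, and -0.036 to 0.39 when a library was left out, lowest without WT2), for Atf7ip (-0.10 to 0.48 when a library was left out, lowest without WT2) and for Fam208a (0.0086 with the block and trends removed); the cause was not tested. Of 8 list medians 7 were below 0, with 6 to 8 over the alternatives: that of the HP1 genes turned to 0.09 with trends removed (0.26 with the block too), and that of the 2-cell genes to -0.19 without KO2 and -0.34 without WT2. Per kilobase of exon, the ratio of Fam208b to Fam208a was 0.206 in KO1 and 0.209 in KO2, against 0.598 in WT1 and 0.572 in WT2.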

Other observations

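Among the first 5 Mb of chromosome 13, 7 genes were tested, Fam208b among them. All had lower values in both knockouts than in both wild types, as did 34.8% of all tested genes. The seventh, the aldo-keto reductase gene Akr1e1, had 8.01 and 9.31 CPM in the knockouts, against 16.6 and 17.3 CPM in the wild types. Next along the chromosome Klf6, a zinc finger transcription factor gene, had 57.1 and 59.6 CPM in the knockouts, against 50.4 and 48.7 CPM in the wild types. When the genome was divided into windows of 5 Mb, 497 held at least 5 tested genes, and this window had the lowest median log2 fold change of them, -1.29 (-1.045 and again the lowest with GC and length trends removed). Without Fam208b the median of the other 6 genes was -1.13 (-0.79 with trends removed), a value that 4 windows of the 497 reached (2 with trends removed). The window was looked at because Fam208b lies in it, so these values are a description with no test.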
